A study of Mus musculus with 7 samples.

Results

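Potassium channel genes were examined in hearts of a mouse model of myocarditis caused by immune checkpoint inhibitors (ICI), drugs that block receptors restraining T cells. The set holds every gene of the deposited expression table whose symbol begins with Kcn, except the noncoding RNA Kcnq1ot1, which makes 94 of 23420 rows. Membership rests on the symbol alone and uses no measured value. The 4 control mice were Ctla4+/+;Pdcd1-/- and the 3 ICI-myocarditis mice were Ctla4+/-;Pdcd1-/-, so that both groups lack Pdcd1 and differ by 1 copy of Ctla4. All 7 mice were untreated and 3 to 6 weeks old, and each gave 1 bulk library of total RNA from frozen ventricle (the tissue label reads whole mouse heart). Strain is not given in the sources used here. The model is genetic, and no animal received a checkpoint inhibitor.

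Potassium channels carry the outward current that repolarises a heart cell after each beat and that holds its resting potential. In the mouse ventricle, repolarisation rests mainly on the fast transient outward current (Ito) and on slowly inactivating voltage-gated currents, while inward rectifiers set the resting potential. Pore-forming alpha subunits build each channel, and accessory subunits such as the KChIP, KCNE and Kv-beta proteins control its traffic to the membrane and its gating. Leukocytes carry other members, among them Kcna3 and Kcnn4, which sustain calcium entry into activated T cells.

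Of the 94 genes, 60 reached 10 normalized counts (reads of a gene after the scaling of each library by its own size factor) in at least 3 libraries and are called measured below. The other 34 did not, 6 of them were listed at 0 in all 7 libraries, and none exceeded 21.2 normalized counts in any library. These 34 are not measured here. They include 8 of 14 2-pore channels, 8 of 10 electrically silent subunits and 3 of 4 Kcnmb subunits. Kcne2, an accessory subunit of the rapid delayed rectifier, reached at most 3.07 normalized counts, and Kcnk1 reached 11.1 in control 2 and at most 3.35 elsewhere. Kcne3 and Kcnma1 passed this filter through the controls alone, with all 3 ICI-myocarditis libraries below 10, so a difference was built into their passing.

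Libraries held from 20931730 to 39037176 reads assigned to genes. Control 2 stood apart from the other controls, with 1564 normalized counts summed over 8 T cell genes against 116 to 198 in controls 1, 3 and 4 and 6993 to 10794 in ICI-myocarditis. The sum over 7 macrophage genes was 12359 to 16298 in controls and 49964 to 77610 in ICI-myocarditis, and all 8 T cell and all 7 macrophage genes were called higher. The sum over 12 cardiomyocyte genes (Myh6, Ttn, Tnnt2 and others) was 2640710 to 5411400 in controls and 1992020 to 3155120 in ICI-myocarditis. All 12 genes were lower on average, 0 of them past the threshold (limma, 2 at an unadjusted p under 0.05), with a median log2 fold change of -0.76. Control 2 had the lowest control sum. Its mean log2 level over these 12 genes, 16.70, lay below those of ICI-myocarditis 1 and 2 (16.82 and 16.89). Of 6 genes listed as atrial markers, 3 were measured (Myl7, Myl4 and Tbx5, the last also known from ventricle). The sum over the 6 was 590 to 1216 normalized counts in controls and 521 to 1020 in ICI-myocarditis. Most of this sum was Tbx5, at 516 to 1145 in controls and 446 to 962 in ICI-myocarditis, so it says little about atrial tissue. Sln and Bmp10 reached at most 3.70 and 0 normalized counts. Neither targeted gene checked the genotypes, since Ctla4 (29.2 to 113 normalized counts in controls, 251 to 373 in ICI-myocarditis) and Pdcd1 (2.50 to 244 and 1096 to 1481) were read in every library and a gene total carries no information on single exons. In bulk tissue fewer cells of a type and less RNA per cell cannot be told apart.

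Together the 94 genes took 1667 ± 293 CPM (reads of these genes relative to all assigned reads of the library) in the controls (SD over 4 libraries) and 1186 ± 230 in the ICI-myocarditis hearts (SD over 3 libraries, exact permutation p = 0.0857, two-sided). Levels of different genes were compared per kilobase of annotated exon. Kcnk3, the 2-pore channel TASK, stood first in controls at 2613 ± 1136 normalized counts per kilobase (SD, n = 4). Kcnip2, the accessory subunit of Ito, followed at 1867 ± 797 and the silent subunit Kcng2 at 1674 ± 640. The next levels were 1207 ± 513 for Kcnj11 and 933 ± 233 for Kcnj8, the pore subunits of ATP-sensitive channels, and 683 ± 227 for Kcnh2, the pore of the rapid delayed rectifier. Of the genes named here, Kcnj5, Kcna5, Kcnj12, Kcnj2, Kcnq1, Kcnj3, Kcnd2 and Kcna7 came after them in that order, from 603 to 175. Among the first 15 genes, neighbours in the order differed by less than the larger SD of the pair in all of the 14 pairs but 1, Kcnj8 and Kcnh2. In ICI-myocarditis Kcnk3 was again first, at 1336 ± 248 (SD, n = 3), and Kcnip2 was in place 5, at 507 ± 303.

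**Figure D1:**
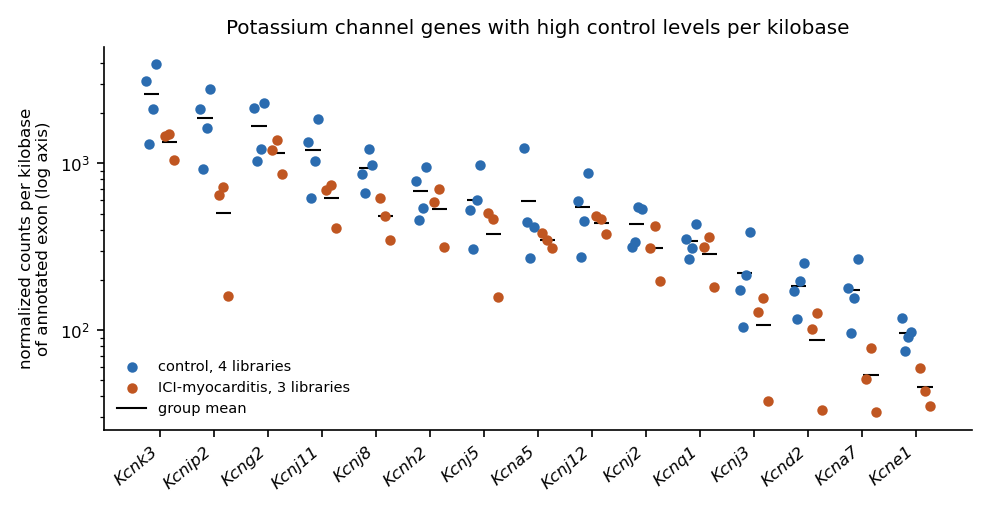
Level per kilobase of annotated exon (log axis) of 15 of the 16 potassium channel genes with the highest control mean, 1 point per library and a bar at each group mean. Kcnk3 leads in both groups, and Kcnip2 goes from 1867 in controls, where it is the second, to 507 in ICI-myocarditis.

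Which of these genes differed between the groups was tested with limma over all 15258 measured genes of the table. Of the 60 measured potassium channel genes, 8 were lower in ICI-myocarditis (13.3%, against 4.00% of all genes tested) and 7 were higher (11.7%, the same share as the 11.7% of all genes). The 8 include Kcnma1, and the 60 also Kcne3, whose direction the filter fixed, so that 7 lower genes remain without Kcnma1. The lower genes were Kcnip2, Kcnd3, Kcne1, Kcnj8, Kcnv2, Kcna1, Kcna7 and Kcnma1, and the higher ones Kcnn4, Kcna3, Kcnab2, Kcnj10, Kcnk13, Kcnk5 and Kcnq5. The median log2 fold change of the 60 was -0.38, against -0.02 over all genes, with 37 of them below 0. Scaling by library size alone raised the median of all genes by 0.16, and 34 of the 60 were then below 0. The 3 ICI-myocarditis libraries lay below all 4 controls for 11 genes (18.3%, against 11.3% of all genes) and above them for 11 (18.3%, against 17.3%). The count of lower genes was 2 without control 1, 11 without control 2, 1 without control 3, 5 without ICI-myocarditis 1, 4 without ICI-myocarditis 2 and 2 without ICI-myocarditis 3, and that of higher genes was 4 without ICI-myocarditis 3.

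**Figure D2:**
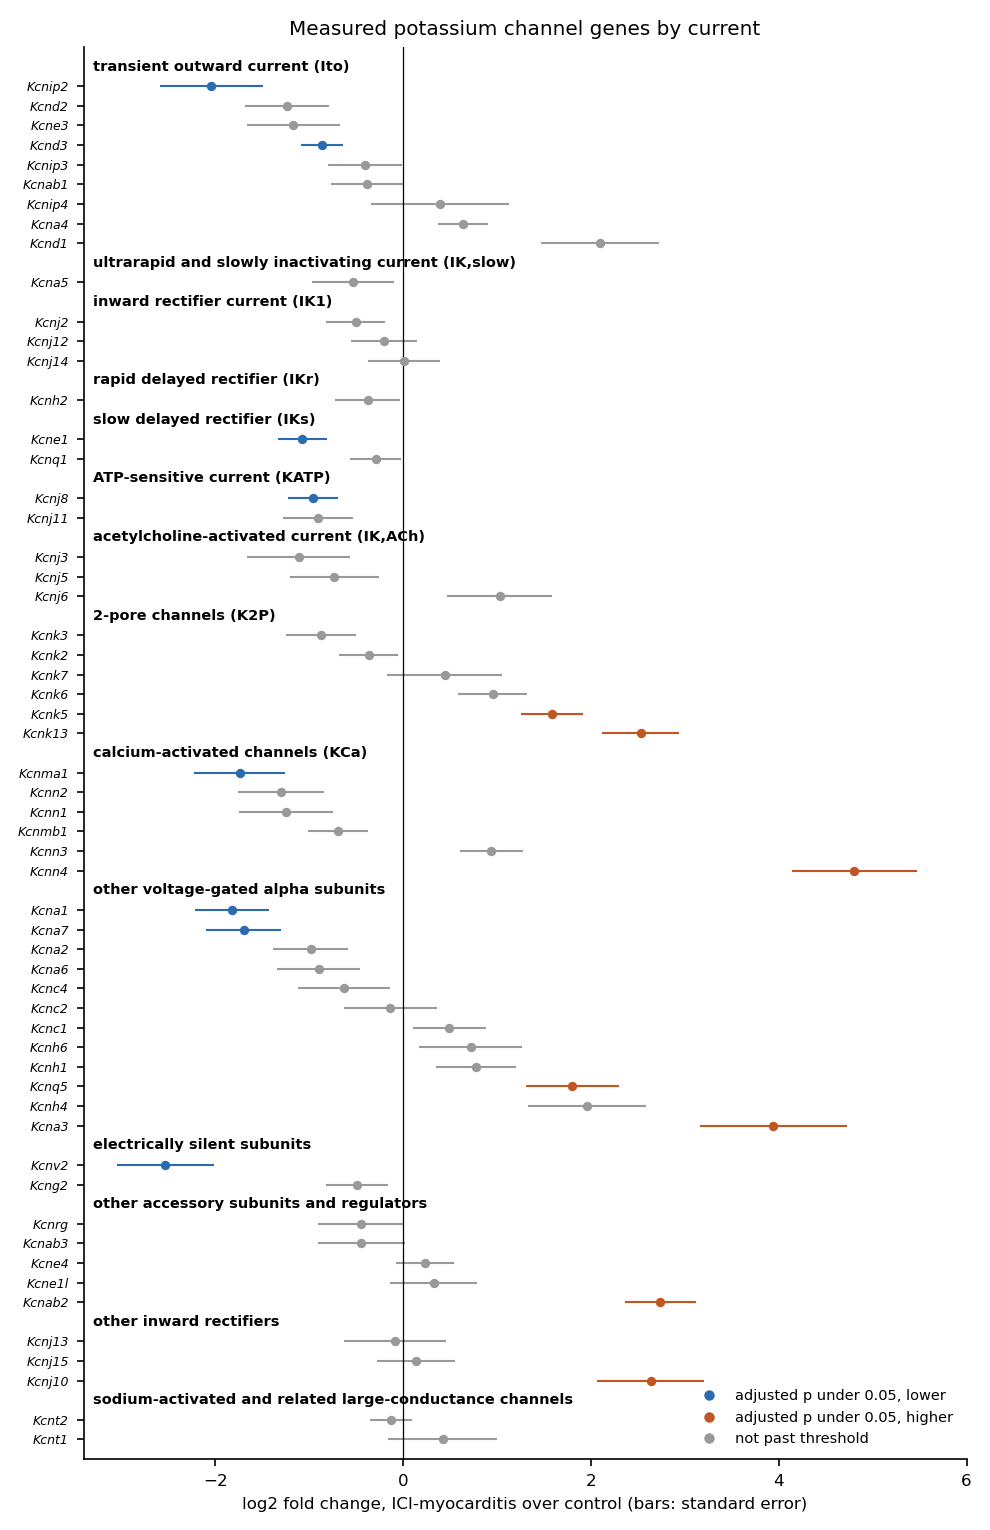
Log2 fold change with its standard error for 57 of the 60 measured genes, grouped by the current they carry, with genes past an adjusted p of 0.05 coloured. Values run from -2.53 (Kcnv2) to 4.80 (Kcnn4), and the 8 lower genes are spread over 6 groups.

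The transient outward current had 9 measured members of 10, of which 2 fell and 7 did not pass the test. Kcnip2 encodes KChIP, the calcium-binding subunit without which mouse ventricle loses this current, and lies on chromosome 19 (45791839 to 45816061, minus strand, GRCm38). Controls 1 to 4 held 7358, 3197, 5641 and 9759 normalized counts, against 2235, 2495 and 555 in ICI-myocarditis hearts 1 to 3. Every ICI-myocarditis library lay below every control, and ICI-myocarditis 3 was the lowest of all. Kcnip2 fell by 2.04 on the log2 scale (limma, SE 0.548 and adjusted p = 0.0354). The call was lost without control 1 (-1.94 on the log2 scale, adjusted p = 0.0955 by limma), control 3 (-2.07, 0.0852), control 4 (-1.81, 0.0673) or ICI-myocarditis 3 (-1.34, 0.0938), and with limma without trend and robust variance (-2.04, 0.0541).

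The 250 bases before the Kcnip2 start are shown because this accessory subunit carried the largest fall among the genes of Ito. The sequence is that of RefSeq (GRCm38.p6, chr19:45816064-45816313, minus strand), in which none of the 4 motifs described further down was found, so that it holds no capitals.
Kcnip2: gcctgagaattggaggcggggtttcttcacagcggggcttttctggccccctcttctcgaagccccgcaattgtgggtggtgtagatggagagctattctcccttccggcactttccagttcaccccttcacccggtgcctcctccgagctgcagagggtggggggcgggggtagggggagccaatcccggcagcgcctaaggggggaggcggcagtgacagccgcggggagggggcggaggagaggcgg

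The pore subunits of Ito were lower on average by less. Kcnd3 had 687, 600, 712 and 757 normalized counts in controls and 352, 515 and 298 in ICI-myocarditis, with no overlap between groups. It fell by 0.86 on the log2 scale (limma, SE 0.224 and adjusted p = 0.0313). Kcnd2, the more abundant of the pair per kilobase in controls, had 889, 598, 1013 and 1305 in controls and 522, 654 and 171 in ICI-myocarditis. Here control 2 lay below ICI-myocarditis 2, and the log2 fold change of -1.24 did not pass (limma, SE 0.449 and adjusted p = 0.0976), although it passed without control 2 (-1.44, limma adjusted p = 0.0486). The Kcnd3 call was lost without control 1 (-0.86, limma adjusted p = 0.0745), control 3 (-0.84, 0.0902), control 4 (-0.81, 0.0610), ICI-myocarditis 1 (-0.81, 0.0916) or ICI-myocarditis 3 (-0.69, 0.127), and with scaling by library size alone (-0.70, 0.0721). A replicate block over 3 pairs of same-numbered libraries also lost this call (-0.81, limma adjusted p = 0.142).

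Kcna4, the pore of the slow component of Ito, pointed the other way. Normalized counts of Kcna4 came to 142, 128, 144 and 180 in controls and 176, 226 and 307 in ICI-myocarditis, a log2 fold change of 0.64 that did not pass (limma, SE 0.263 and adjusted p = 0.138). Kcnd1, a further Kcnd pore gene of low level, had 3.75 to 29.6 in controls and 39.9 to 63.4 in ICI-myocarditis. It did not pass (2.10 on the log2 scale, adjusted p = 0.0512 by limma). Only 2 of the 4 controls reached 10 normalized counts, so its passing of the filter rested on the ICI-myocarditis libraries, where it was higher. Among the accessory genes, Kcne3 (-1.17), Kcnip3 (-0.41), Kcnab1 (-0.38) and Kcnip4 (0.40) did not pass (limma adjusted p from 0.147 to 0.767).

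How the subunits stood to one another was read as log2 ratios within each library, for 8 pairs chosen after their values had been seen. Kcnip2 over Kcnd2 was 2.42 to 3.05 in controls and 1.69 to 2.10 in ICI-myocarditis, a difference of -0.80 between group means. Kcna4 over Kcnd2 was -2.85 to -2.21 in controls and -1.56 to 0.84 in ICI-myocarditis, a difference of 1.88. Both ratios had groups that did not overlap, at the smallest exact permutation p that 35 splits allow, 0.0286, which became 0.0762 after adjustment over the 8 pairs. An adjusted p under 0.05 would have needed more of the 8 pairs at this smallest p. Kcnd2 over Kcnd3 differed by -0.38 (exact permutation p = 0.486, adjusted 0.555).

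Kcne1 and Kcnq1 form the slow delayed rectifier, a current that is small in adult mouse ventricle, and they differed in how far they were from control. Kcne1, the accessory subunit minK, had 382, 241, 290 and 314 normalized counts in controls and 189, 138 and 113 in ICI-myocarditis. All 3 ICI-myocarditis libraries lay below the lowest control, and Kcne1 fell by 1.07 on the log2 scale (limma, SE 0.262 and adjusted p = 0.0243). The pore gene Kcnq1 had 1437, 1099, 1266 and 1775 in controls and 1282, 1488 and 738 in ICI-myocarditis. The groups overlapped, and the log2 fold change of -0.29 did not pass (limma, SE 0.275 and adjusted p = 0.527). The antisense RNA Kcnq1ot1 shares 121 exon bases with Kcnq1 in the annotation, and the use of strand in counting is not given in the sources used here. Kcne1 over Kcnq1 was -2.50 to -1.91 on the log2 scale in controls and -3.42 to -2.70 in ICI-myocarditis (difference -0.78, exact permutation p = 0.0286, adjusted over the 8 pairs 0.0762). The Kcne1 call was lost without control 1 (-0.96, limma adjusted p = 0.0699), control 3 (-1.09, 0.0679), ICI-myocarditis 2 (-1.04, 0.0803) or ICI-myocarditis 3 (-0.90, 0.0979), and with the replicate block (-1.05, 0.0672).

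ATP-sensitive channels open when cellular ATP falls and join a Kir pore with a sulfonylurea receptor. Kcnj8, the pore of vascular cells, had 2210, 1699, 3122 and 2476 normalized counts in controls and 1579, 1235 and 880 in ICI-myocarditis. The groups were apart by a small gap, between ICI-myocarditis 1 and control 2, and Kcnj8 fell by 0.95 on the log2 scale (limma, SE 0.267 and adjusted p = 0.0410). Kcnj11, the pore of ventricular myocytes, had 4933, 2270, 3798 and 6746 in controls and 2553, 2726 and 1511 in ICI-myocarditis, so that control 2 lay inside the range of the other group. Its log2 fold change of -0.91 was close to that of Kcnj8 but did not pass (limma, SE 0.372 and adjusted p = 0.137), and it passed without control 2 (-1.20, limma adjusted p = 0.0219). The ratio of Kcnj11 to Kcnj8 differed by 0.045 on the log2 scale between group means (exact permutation p = 0.914).

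Abcc9, the sulfonylurea receptor that pairs with both pores in heart and vessel, had 23427, 15602, 25222 and 28608 normalized counts in controls and 8669, 10539 and 4384 in ICI-myocarditis. It fell by 1.62 on the log2 scale (limma, SE 0.358 and adjusted p = 0.0164), with groups fully apart. Abcc8, the other receptor gene, had a log2 fold change of -0.55 (limma adjusted p = 0.130). Kcnj8 and Abcc9 are also markers of pericytes, cells that wrap small vessels. The other 6 pericyte genes summed to 32845 to 41894 normalized counts in controls and 18391 to 19939 in ICI-myocarditis, with 2 of 6 called lower (Rgs5 and Vtn). Much of this sum was Rgs5, at 18352 to 24158 in controls and 5998 to 9366 in ICI-myocarditis. Pdgfrb, Notch3, Higd1b and Cspg4 overlapped between groups, and Cspg4 had a log2 fold change of 0.10. Over 8 endothelial genes the sum was 31639 to 81190 in controls and 23290 to 30024 in ICI-myocarditis, with 4 of 8 called lower and a median log2 fold change of -1.07. The part of either cell type in the Kcnj8 and Abcc9 results was not tested. The Kcnj8 call was lost without control 1 (-0.98, limma adjusted p = 0.0865), control 3 (-0.81, 0.114), control 4 (-0.92, 0.0732), ICI-myocarditis 2 (-0.98, 0.102) or ICI-myocarditis 3 (-0.73, 0.171), and with scaling by library size alone (-0.79, 0.0695) or limma without trend and robust variance (-0.95, 0.0631), and that of Abcc9 without control 3 (-1.57, 0.0570) or ICI-myocarditis 3 (-1.25, 0.0628). The replicate block also lost the Kcnj8 call. Abcc9 was past the threshold in 15 of the 18 alternative analyses.

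The window before the Kcnj8 start, which lies next to Abcc9 on chromosome 6, is given as the second example of a gene that fell (RefSeq, GRCm38.p6, chr6:142571615-142571864, minus strand). None of the 4 motifs was found in it either.
Kcnj8: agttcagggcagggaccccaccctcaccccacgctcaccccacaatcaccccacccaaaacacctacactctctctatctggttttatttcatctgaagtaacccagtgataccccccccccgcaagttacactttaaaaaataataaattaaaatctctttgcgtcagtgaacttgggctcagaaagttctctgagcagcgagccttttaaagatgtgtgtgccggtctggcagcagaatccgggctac

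Genes of the remaining cardiac currents did not pass the test. The inward rectifier IK1, which holds the resting potential, had Kcnj2 at 1709, 1831, 2998 and 2889 normalized counts in controls and 1691, 2301 and 1071 in ICI-myocarditis (-0.50 on the log2 scale with SE 0.312, adjusted p = 0.320 by limma). Kcnj12, its other main pore, had 1636, 756, 1239 and 2417 and then 1321, 1281 and 1030 (-0.21 on the log2 scale with SE 0.350, adjusted p = 0.747 by limma). The groups overlapped for each gene. Kcnh2, the pore of the rapid delayed rectifier, had 3782, 2212, 2613 and 4622 in controls and 2836, 3379 and 1519 in ICI-myocarditis (-0.38 on the log2 scale with SE 0.343, adjusted p = 0.511 by limma). Kcna5, the pore of the ultrarapid current, had a log2 fold change of -0.53 (limma, SE 0.436 and adjusted p = 0.460). It was at 3551 in control 1 and at 779 to 1264 in every other library, and without control 1 its log2 fold change was -0.10. Kcnj3 and Kcnj5, which form the channel opened by acetylcholine, had log2 fold changes of -1.11 and -0.73 (SE 0.545 and 0.474, limma adjusted p = 0.208 and 0.343), with ICI-myocarditis 3 far below the other libraries for both (196 and 740 normalized counts) and with 31.1% of the Kcnj3 exon length shared with an antisense gene.

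Among voltage-gated genes outside these currents, 3 fell. Kcnv2, a silent subunit that joins other voltage-gated pores and is also known from photoreceptors, had 205, 205, 288 and 362 normalized counts in controls and 71.6, 71.0 and 16.05 in ICI-myocarditis. It lies on chromosome 19 (27322588 to 27337179, plus strand, GRCm38). Kcnv2 fell by 2.53 on the log2 scale (limma, SE 0.514 and adjusted p = 0.0118), and it was past the threshold in all 18 alternative analyses (largest adjusted p 0.0421). The other measured silent subunit, Kcng2, had 3069 to 6839 in controls and 2569 to 4122 in ICI-myocarditis (-0.49 on the log2 scale, adjusted p = 0.367 by limma).

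Kcna7, a Kv pore gene of heart and skeletal muscle, had 389, 211, 341 and 586 normalized counts in controls and 111, 170 and 70.3 in ICI-myocarditis. It fell by 1.70 on the log2 scale (limma, SE 0.395 and adjusted p = 0.0204), a call lost without control 1 (-1.66, limma adjusted p = 0.0616), control 3 (-1.72, 0.0591), ICI-myocarditis 1 (-1.70, 0.0522) or ICI-myocarditis 3 (-1.38, 0.0795), and with the replicate block (-1.46, 0.0527). Kcna1, best known from axons, had 328, 204, 184 and 97.6 in controls and 46.0, 48.6 and 62.7 in ICI-myocarditis, with no overlap. It fell by 1.82 on the log2 scale (limma, SE 0.396 and adjusted p = 0.0154), a call lost without control 3 (-1.83, limma adjusted p = 0.0505) or ICI-myocarditis 2 (-1.77, 0.0514). Its axonal relatives Kcna2 (-0.98) and Kcna6 (-0.90) did not pass (limma adjusted p = 0.135 and 0.207), and 39.6% of the Kcna6 exon length overlaps an antisense gene. Of 8 Schwann cell and nerve genes, 5 were measured, of which 1 was called lower and 1, Ncam1, higher, and Th was listed at 0 in every library. Their sum was 662 to 758 in controls and 702 to 1313 in ICI-myocarditis, and its part in the Kcna1 result was not tested.

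Of the calcium-activated channels 6 of 9 were measured, with Kcnma1 lower and Kcnn4 higher. Kcnma1, the pore of the large-conductance channel of smooth muscle, had 35.3, 17.3, 32.4 and 12.5 normalized counts in controls and 6.14, 5.80 and 6.11 in ICI-myocarditis. The test gave -1.74 on the log2 scale (limma, SE 0.483 and adjusted p = 0.0395), from a level close to the floor. Since Kcnma1 passed the filter on low values through the controls alone, this difference was built into its being tested and is a description only. Its smooth muscle partner Kcnmb1 had 155, 118, 112 and 68.8 in controls and 69.6, 70.3 and 61.9 in ICI-myocarditis (-0.69 on the log2 scale, adjusted p = 0.188 by limma). The sum over 6 smooth muscle genes was 17224 to 29439 in controls and 10549 to 16326 in ICI-myocarditis, with Myh11 and Cnn1 called lower, and its part in the Kcnma1 result was not tested. The Kcnma1 call was lost without control 1 (-1.53, limma adjusted p = 0.106), control 3 (-1.57, 0.120), ICI-myocarditis 1 (-1.75, 0.0950), 2 (-1.71, 0.112) or 3 (-1.75, 0.124), and with scaling by library size alone (-1.60, 0.0800).

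The small-conductance genes diverged in sign without passing. Kcnn1 and Kcnn2, found in cardiac myocytes, had log2 fold changes of -1.24 and -1.30 (SE 0.496 and 0.459, limma adjusted p = 0.128 and 0.0894). Kcnn2 had 343, 226, 291 and 473 normalized counts in controls and 178, 217 and 56.5 in ICI-myocarditis, which did not overlap. Kcnn3, an endothelial and neuronal member, had 93.8, 72.8, 80.4 and 41.3 in controls and 125, 155 and 123 in ICI-myocarditis, also without overlap (0.94 on the log2 scale with SE 0.334, adjusted p = 0.0902 by limma).

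**Figure D3:**
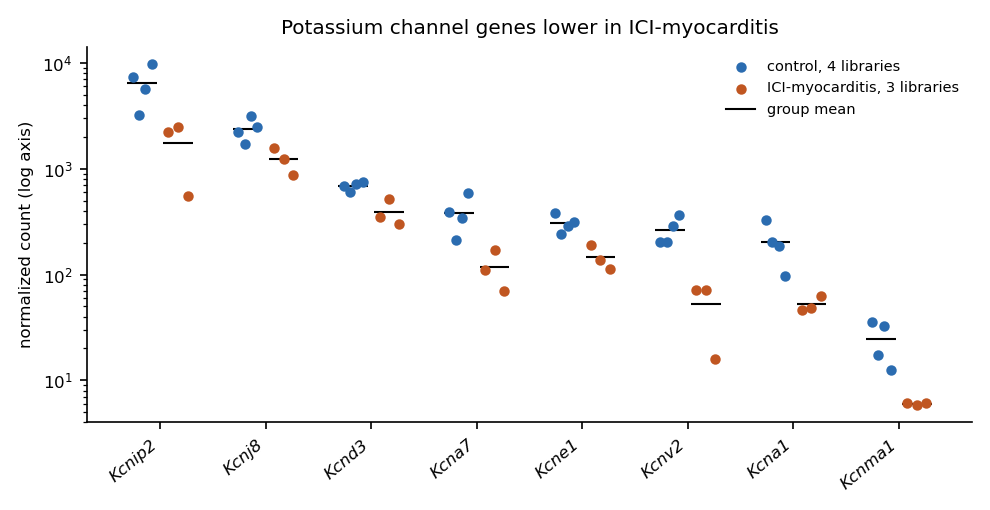
Normalized counts (log axis) in each library of the 8 potassium channel genes that were lower in ICI-myocarditis, with a bar at each group mean. No ICI-myocarditis library reaches any control for these genes, and ICI-myocarditis 3 is the lowest library for Kcnip2 (555) and Kcnv2 (16.05).

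To set the channel genes against the heart muscle as a whole, the mean log2 level of the 12 cardiomyocyte genes was subtracted in each library. That mean was 17.38 ± 0.504 in the controls (SD over 4 libraries) and 16.61 ± 0.435 in the ICI-myocarditis hearts (SD over 3 libraries, exact permutation p = 0.114). The measure was applied to 23 genes, which were picked with their values known. Relative to it, Kcnv2 was lower by -1.76 on the log2 scale, Kcnip2 by -1.27 and Kcna7 by -0.92, each with all ICI-myocarditis libraries below all controls. Kcna4 was higher by 1.41, Kcnj12 by 0.57, Kcnq1 by 0.48 and Kcnh2 by 0.40, each with groups apart in the other direction. The subtracted mean itself differed by -0.77 between groups. Before subtraction Kcnj12 (-0.21), Kcnq1 (-0.29) and Kcnh2 (-0.38) had log2 fold changes below 0 and overlapping groups, so higher here means a smaller fall than that mean. Relative to the mean, Kcnd3 (-0.09), Kcnk3 (-0.10), Kcnj11 (-0.14), Kcnj8 (-0.18) and Kcne1 (-0.30) overlapped between groups. For Kcnj8, a gene of vascular cells and pericytes, a level relative to cardiomyocyte genes does not describe the cells that carry it. The exact permutation p was 0.0286, the smallest possible, for Kcnv2, Kcnip2, Kcna7, Kcna4 and Kcnh2, and 0.131 after adjustment over the 23 genes, so that 0 of 23 passed (5 at an unadjusted p under 0.05). With this floor, an adjusted p under 0.05 would have needed many more of the 23 genes at it, so this outcome says little.

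**Figure D4:**
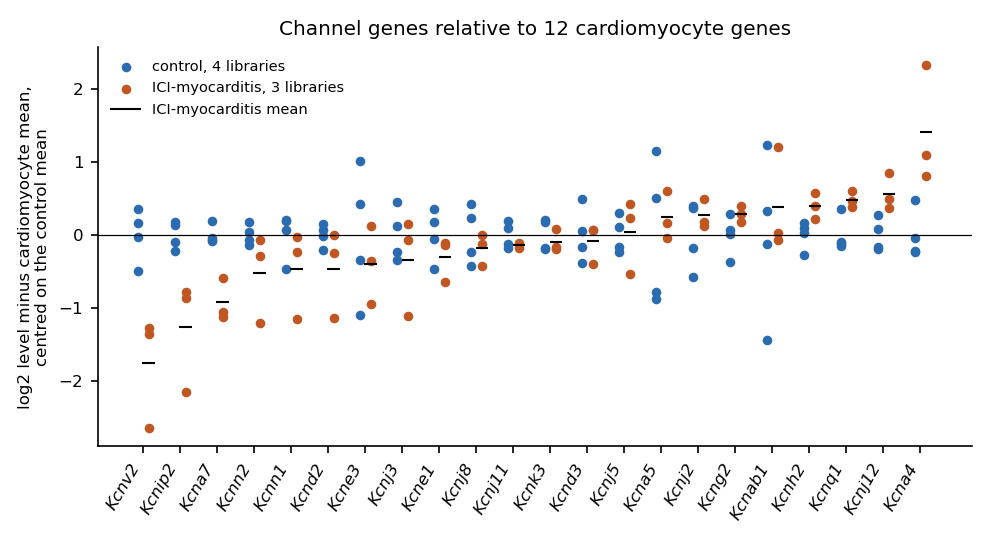
Log2 level of 22 of the 23 channel genes minus the mean log2 level of 12 cardiomyocyte genes, 1 point per library, centred on the control mean of each gene, with a bar at the ICI-myocarditis mean. Genes run from Kcnv2 (-1.76) to Kcna4 (1.41), with Kcnd3 and Kcnk3 near 0.

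Of 14 2-pore channels, which leak potassium at rest, 6 were measured and 2 rose. Kcnk3, the most abundant potassium channel gene here, had 12319, 5220, 8441 and 15578 normalized counts in controls and 5792, 5966 and 4180 in ICI-myocarditis. Control 2 lay below 2 of the 3 ICI-myocarditis libraries, and the log2 fold change of -0.87 did not pass (limma, SE 0.371 and adjusted p = 0.151), while it passed without control 2 (-1.16, limma adjusted p = 0.0210). The stretch-sensitive Kcnk2 had a log2 fold change of -0.36 (limma adjusted p = 0.482). Kcnk6, another 2-pore member, had 465, 307, 213 and 165 in controls and 392, 478 and 737 in ICI-myocarditis (0.95 on the log2 scale with SE 0.369, adjusted p = 0.117 by limma).

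The 2 that rose were of low level. Kcnk13, a channel of microglia and other cells, had 21.2, 55.5, 48.0 and 62.6 normalized counts in controls and 226, 205 and 360 in ICI-myocarditis. It rose by 2.53 on the log2 scale (limma, SE 0.413 and adjusted p = 0.00560). Kcnk5, which is also carried by T cells, had 57.5, 58.0, 33.5 and 32.5 in controls and 129, 125 and 147 in ICI-myocarditis, and rose by 1.59 (limma, SE 0.329 and adjusted p = 0.0123). Its call was lost without ICI-myocarditis 3 (1.52, limma adjusted p = 0.0594).

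The largest increases were those of leukocyte channels. Kcnn4, the intermediate-conductance calcium-activated channel of T cells and macrophages, lies on chromosome 7 (24370263 to 24386690, plus strand, GRCm38). It had 16.1, 67.8, 8.93 and 10.01 normalized counts in controls and 340, 484 and 895 in ICI-myocarditis. Kcnn4 rose by 4.80 on the log2 scale (limma, SE 0.664 and adjusted p = 0.00376) and by 5.42 without control 2, the highest control. Kcna3, the voltage-gated channel of T cells, on chromosome 3 (107036169 to 107038070, plus strand, GRCm38), had 14.1, 110, 13.4 and 7.51 in controls and 210, 345 and 480 in ICI-myocarditis. It rose by 3.94 (limma, SE 0.786 and adjusted p = 0.0108) and by 4.74 without control 2.

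Control 2, the control with the most T cell transcripts, was thus the highest control for both genes, and ICI-myocarditis 3, which had the largest T cell and macrophage sums (10794 and 77610 normalized counts), was the highest of all libraries. All 7 macrophage and all 8 T cell genes of the lists rose with them, and how much of the increase these cells account for was not tested. Windows of 250 bases before the starts of both genes are printed, since these genes showed the largest increases (RefSeq, GRCm38.p6, plus strand, chr7:24370013-24370262 for Kcnn4 and chr3:107035912-107036161 for Kcna3). Capitals mark a match to the NF-kappaB motif, at 33 to 24 bases before the Kcnn4 start.
Kcnn4: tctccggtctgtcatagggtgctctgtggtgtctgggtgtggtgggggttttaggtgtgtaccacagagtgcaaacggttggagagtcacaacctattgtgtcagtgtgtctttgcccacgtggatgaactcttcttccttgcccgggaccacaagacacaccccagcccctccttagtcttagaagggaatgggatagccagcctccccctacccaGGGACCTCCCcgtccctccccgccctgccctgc
Kcna3: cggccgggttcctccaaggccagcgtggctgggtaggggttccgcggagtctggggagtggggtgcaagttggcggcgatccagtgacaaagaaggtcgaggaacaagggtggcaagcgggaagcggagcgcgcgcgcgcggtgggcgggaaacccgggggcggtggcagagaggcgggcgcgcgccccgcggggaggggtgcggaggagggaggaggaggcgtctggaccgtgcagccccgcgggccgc

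The windows of measured members were searched on both strands for 4 motifs of factors active in inflammation or in muscle: the STAT motif GAS (TTCNNNGAA), the interferon-response core (ISRE), the NF-kappaB motif and the MEF2 motif. A window was at hand for 44 of the 60 measured genes, among them all 7 that rose and 5 of the 8 that fell (not Kcna1, Kcne1 and Kcnv2). Of the 7 that rose only Kcnn4 held a match, to NF-kappaB, and of the 5 that fell only Kcna7, to the interferon-response core (GAAATGGAAA, 23 to 14 bases before the start). Over the 44 genes the NF-kappaB motif was found in 5, the interferon-response core in 3, GAS in 2 and MEF2 in 0. Of 32851 promoter windows of the same length, 7.25%, 2.98%, 7.02% and 2.92% held them in the same order. A match describes letters only and is neither a binding site nor a cause.

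The remaining genes that rose were an accessory subunit, an inward rectifier and a Kv pore. Kcnab2, a Kv-beta subunit of brain and leukocytes, had 106, 199, 82.6 and 75.1 normalized counts in controls and 586, 588 and 1082 in ICI-myocarditis. It rose by 2.74 on the log2 scale (limma, SE 0.377 and adjusted p = 0.00374), while its relatives Kcnab1 (-0.38) and Kcnab3 (-0.45) did not pass (limma adjusted p = 0.550 and 0.569). Kcnj10, a rectifier best known from glia, had 8.07, 24.7, 19.0 and 11.3 in controls and 52.2, 74.6 and 219 in ICI-myocarditis. It rose by 2.64 (limma, SE 0.571 and adjusted p = 0.0151), and without ICI-myocarditis 3 the change was 2.04 and did not pass (limma adjusted p = 0.0639). The glial marker Gfap reached at most 7.06 normalized counts in any library. Kcnq5, a relative of Kcnq1 found in smooth muscle and neurons, had 12.1, 43.2, 31.3 and 55.1 in controls and 116, 87.7 and 133 in ICI-myocarditis. It rose by 1.80 (limma, SE 0.497 and adjusted p = 0.0390), a call lost without control 3 (1.81, limma adjusted p = 0.0952), ICI-myocarditis 1 (1.77, 0.0992), 2 (1.97, 0.0756) or 3 (1.67, 0.145). Kcnn4, Kcna3, Kcnab2 and Kcnk13 were past the threshold in all 18 alternative analyses (largest adjusted p 0.0183, 0.0493, 0.0178 and 0.0289).

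**Figure D5:**
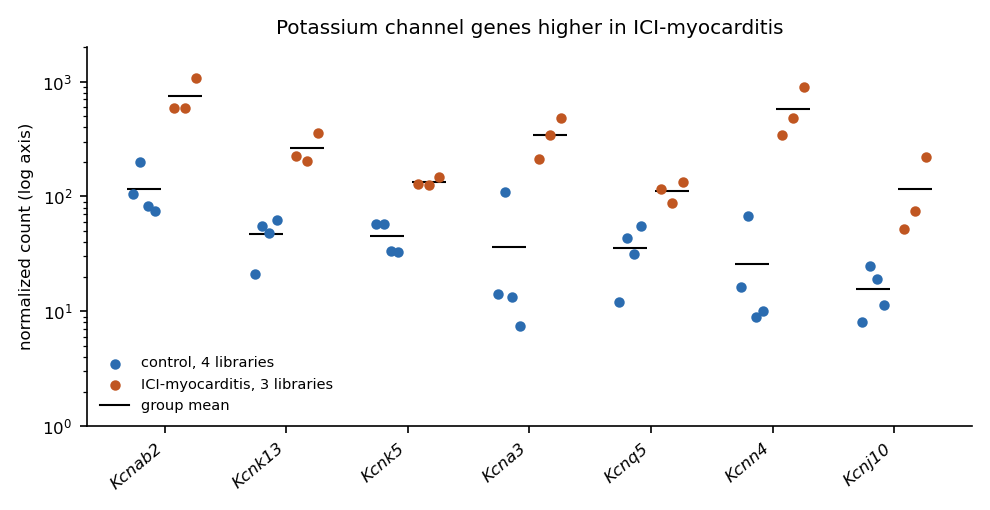
Normalized counts (log axis) in each library of the 7 potassium channel genes that were higher in ICI-myocarditis, with a bar at each group mean. No group overlaps, and control 2 is the highest control for Kcnn4 (67.8), Kcna3 (110), Kcnab2 (199) and Kcnj10 (24.7).

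Other measured members varied without passing the test. Kcnh4 had 17.1, 78.9, 12.3 and 11.3 normalized counts in controls and 80.8, 81.2 and 92.5 in ICI-myocarditis (1.96 on the log2 scale with SE 0.626, adjusted p = 0.0650 by limma), with control 2 close to the other group. Kcnc1, a fast Kv pore, had groups that did not overlap (0.49 on the log2 scale, adjusted p = 0.439 by limma). Kcnt2, a sodium-activated channel at 392 to 564 in controls and 336 to 510 in ICI-myocarditis, and Kcne4, at 86.3 to 172 and 116 to 162, overlapped between groups (log2 fold changes -0.13 and 0.23, limma adjusted p = 0.743 and 0.666).

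Genes that act with these channels were read from a list of 32, of which 28 were measured. Of these, 3 fell (10.7%, against 4.00% of all genes tested) and 1 rose (3.57%, against 11.7%). The median log2 fold change of the 28 was -0.43, against -0.02 over all genes. Besides Abcc9, Rgs4, which limits the G protein signal that opens Kcnj3 and Kcnj5 channels, had 1186, 793, 966 and 744 normalized counts in controls and 425, 468 and 386 in ICI-myocarditis. Rgs4 fell by 1.09 on the log2 scale (limma, SE 0.212 and adjusted p = 0.00969). Lrrc52, an accessory subunit of large-conductance channels, had 83.7, 112, 79.3 and 43.8 in controls and 12.3, 20.3 and 8.40 in ICI-myocarditis, and fell by 2.47 (limma, SE 0.441 and adjusted p = 0.00750).

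Irx3 and Irx5, homeobox genes that shape the Kcnd2 gradient across the ventricular wall, had log2 fold changes of 0.09 and -0.02 (limma adjusted p = 0.880 and 0.976), and Dpp6 and Dpp10, accessory genes of Ito in other tissues, were not measured.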

How the data were processed

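Bulk RNA sequencing of 4 control and 3 ICI-myocarditis ventricles was analysed from 1 deposited table. Per the labels, total RNA was made into stranded libraries and read paired-end. STAR 2.7.3 and GRCm38 (mm10) are listed in the submitters' processing notes, without their role, and the counting program and annotation are not given in the sources used here. In the deposited table each library has a signal, its read count after scaling by a size factor: every value is a whole multiple of its column's smallest value (100% within 0.01 of a whole number in all 7 libraries, a weaker sign in control 1, whose step is 1.01). Reads recovered this way served edgeR and DESeq2 as alternatives. The deposited table also holds the authors' own log2 fold changes, their errors, a test score and p-values, used only where named.

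The main test was limma 3.58.1 under R 4.3.3, applied to log2 of the normalized count plus a pseudocount of 1 with trend and robust variance, over genes with at least 10 normalized counts in 3 libraries, Benjamini-Hochberg adjusted over all genes tested, threshold 0.05. The pseudocount makes fold changes of low genes too small. The test was checked on simulated counts with 200 genes changed and the same dispersion for every gene. That check does not give its error rate in these libraries. Single measures used an exact two-sided permutation test over 35 splits. Alternatives were other pseudocounts, filters and scalings, edgeR (4.0.16), DESeq2 (1.42.0), limma-voom, a replicate block and leaving out each library. Exon lengths and gene positions come from GENCODE release M21 (GRCm38), and all 94 symbols matched. Genes whose exons overlap an antisense gene cannot be separated from it without strand.

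Members and gene lists were chosen with earlier results of these data known. Genes named are all members past the threshold and a fixed list of cardiac and leukocyte channel genes. Kcnd1, Kcna2, Kcna6, Kcnh4, Kcng2, Kcnc1, Kcnt2, Kcne4, Kcnab3, Kcnip3 and Kcnip4 were chosen after their values were seen, as were the partner genes given with values. Adgre1 of the macrophage list had no row under that name, so that 7 of 8 were read. Depth, 20931730 to 39037176 reads, limits low genes most. A few genes that enter the counts are not reported here by name or drawn.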

Additional observations from a re-analysis of the deposited data

How the results depend on the processing

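Over the 18 alternatives, the 7 genes called higher were all kept in every one that used all 7 libraries, and in leaving out single libraries at least 4 were kept. Without 1 library each, the number of genes called over the whole table ranged from 1080 to 3345, of potassium channel genes called higher from 4 to 9, and called lower from 1 to 11. limma-voom with quality weights called 4003 genes, 11 potassium channel genes higher and 11 lower. Scaling by library size left 5 called lower, without Kcnd3, Kcnj8 and Kcnma1. The log2 fold change of Kcnj12 changed sign, to 0.061, with the replicate block and, in a range of -0.50 to 0.061 over single libraries left out, without control 4. That of Kcnq1 ranged from -0.50 to 0.0088 and changed sign without ICI-myocarditis 3. None of these passed the threshold. The cause of these changes was not tested. Of 39 genes followed over the alternatives, 19 were called and 8 were called in every one, among them Kcnn4, Kcna3, Kcnab2, Kcnk13, Kcnv2, Rgs4 and Lrrc52.

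The labels share replicate numbers, and deviations of same-numbered libraries from their group means correlated at -0.27, -0.21 and -0.08. Those of differently numbered libraries correlated at -0.32 to 0.40. So few libraries cannot show whether the numbers pair the animals. With the number as a replicate block over 3 pairs, 1771 genes were called, 7 potassium channel genes higher and 4 lower, and Kcnip2, Kcnv2, Kcna1 and Kcnma1 were the lower genes kept. Kcnd2, Kcnj11 and Kcnk3, not called with all libraries, were called without control 2.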

Other observations

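In the authors' deposited table, 19 of the 94 potassium channel genes had an adjusted p below 0.05, 9 higher and 10 lower, among them all 15 called by limma. Among the other 4 were Kcnd1 (log2 fold change 1.86, adjusted p = 0.0196), Kcnn3 (0.89, 0.0403) and Kcnk3 (-0.97, 0.0492), all from the authors' deposited table, which gave no adjusted p to 18 of the genes.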
